A study of Mus musculus with 6 samples.

Results

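Keratins are the intermediate filament proteins of epithelial cells, and 10 of their genes were examined in mouse oviducts with 1 or 2 intact copies of Wt1. The genes were 6 keratins of simple epithelia (Krt7, Krt8, Krt18, Krt19, Krt20 and Krt23) and 4 of stratified epithelia (Krt5, Krt14, Krt15 and Krt17). They were chosen by name: every probe set that the platform annotation assigns to exactly 1 of these genes was taken, which gave 15 of the 45037 probe sets tested, 8 for simple and 7 for stratified keratins. All 10 genes had at least 1 probe set, and Krt8 and Krt14 had 3 each. The study compared oviducts of MF1 females, an outbred stock, in 3 Wt1 +/+ (wild-type) and 3 Wt1 ko/+ (heterozygous) samples. The dams of both genotypes had been mated with wild-type males and their oviducts were taken at embryonic day 2.5, when early embryos are passing through the tube. The sources used here do not give the age of the females, the nature of the deleted allele or any pooling of animals. The p-values therefore cover the spread among these samples only, and part of that spread may be technical. Each sample was measured on 1 array, numbered here by the replicate number of its title, and only 3 arrays per genotype limit the precision of every value.

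A keratin filament is built from pairs of a type I and a type II protein, so that neither type forms filaments without the other. Krt8 (type II) and Krt18 (type I) are the founding pair of simple epithelia such as the lining of the oviduct, where Krt7 (type II) and Krt19 (type I) join them. Krt5 (type II) and Krt14 (type I) form the filaments of the basal cells of stratified epithelia. Mesothelial cells, which cover the oviduct and are a known site of Wt1 expression, also contain simple epithelial keratins. In these bulk samples fewer epithelial cells and less keratin RNA per cell cannot be told apart.

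Wt1 encodes a zinc finger protein that binds DNA, so the stretches just upstream of the keratin transcription starts are shown first. RefSeq promoter windows (build GRCm38.p6, 250 bases before to 50 after a start) were matched for 7 of the 10 genes: Krt5, Krt7, Krt8, Krt14, Krt18, Krt20 and Krt23. Krt7, Krt8 and Krt18 are the bright simple keratins among them, Krt23 had no overlap between the genotypes, and Krt5 is the basal type II keratin. For these 5 genes the 120 bases before the start are printed 5′ to 3′ on the strand of the gene, with complete matches to the motifs named below in capitals.
Krt7, chr15:101412283-101412402, plus strand: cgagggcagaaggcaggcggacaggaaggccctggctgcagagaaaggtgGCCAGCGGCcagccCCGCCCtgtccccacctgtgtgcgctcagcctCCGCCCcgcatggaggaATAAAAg
Krt8, chr15:102004343-102004462, minus strand: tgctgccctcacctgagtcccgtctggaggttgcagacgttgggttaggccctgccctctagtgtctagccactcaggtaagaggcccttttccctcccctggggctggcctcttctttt
Krt18, chr15:102028096-102028215, plus strand: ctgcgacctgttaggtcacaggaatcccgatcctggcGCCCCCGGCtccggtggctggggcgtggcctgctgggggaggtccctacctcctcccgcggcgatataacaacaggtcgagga
Krt23, chr11:99493121-99493240, minus strand: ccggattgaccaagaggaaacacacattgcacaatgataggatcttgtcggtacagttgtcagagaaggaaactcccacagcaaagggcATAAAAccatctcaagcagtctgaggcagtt
Krt5, chr15:101712906-101713025, minus strand: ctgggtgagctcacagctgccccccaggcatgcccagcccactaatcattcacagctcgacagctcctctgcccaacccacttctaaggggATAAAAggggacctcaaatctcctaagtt

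A motif of the WT1 type (GCGTGGGNG, searched on both strands) was in 0 of the 7 keratin windows and in 1.90% of all 32851 windows of the same length. That says only that these letters are not in these windows. A GC box (GGGCGG, both strands) was in the Krt7 window alone among the 7, against 35.7% of all windows. The AP-2 motif (GCCNNNGGC, a palindrome) was in the Krt7 and Krt18 windows, against 16.6% of all windows, and 1 of its matches in Krt7 overlaps a GC box. The AP-1 motif (TGANTCA, a palindrome) was in 0 of the 7, against 7.81%. The TATA box (TATAAA, both strands) was in the Krt8 and Krt20 windows, against 13.6% of all windows; the Krt8 matches span the annotated start and so are not complete in the stretch printed. The A/T-rich core ATAAAA, which overlaps the TATA box and was added after the sequences were read, was in 5 of the 7 windows against 18.5% of all windows. It began 29 bases before the start in Krt5, 31 in Krt23, 28 in Krt20 and 7 in Krt7, and 4 bases before it on the other strand in Krt8, where it spans the start.

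The oviduct identity of the samples was clear at its markers. Ovgp1, the oviduct-specific glycoprotein of secretory cells, stood between 14.26 and 14.36 on the log2 scale in the 6 arrays. Foxj1, the regulator of motile cilia, stood between 11.97 and 12.20 in wild-type and between 11.65 and 11.86 in heterozygous arrays. On the normalized scale the genotypes did not overlap at either gene, as at 11.8% of all genes. In the deposited values Ovgp1 overlapped, at 17928 to 22923.7 in wild-type and 19743.9 to 20403.5 in heterozygous arrays. Its separation therefore rests on the normalization. Ovgp1 differed by 0.058 and Foxj1 by -0.31, and neither passed (limma adjusted p = 0.964 and 0.933). The Wt1 probe set, the check of the labels, read 12.17, 12.06 and 11.67 in wild-type arrays 1 to 3 and 11.12, 11.27 and 11.79 in heterozygous arrays 1 to 3. The genotypes overlapped in heterozygous replicate 3, and the difference of -0.57 did not pass (adjusted p = 0.933 with limma). Ratios of control probe sets, a possible sign of RNA quality, varied as well. For the Actb control probe sets the 3' signal over the 5' signal (the Actb ratio) was 5.90 in wild-type replicate 3. It was 2.40 in wild-type replicate 2, 2.49 in heterozygous replicate 1 and between 1.67 and 1.74 in the other arrays. For Gapdh the same kind of ratio was 2.39 in wild-type replicate 3 and between 0.74 and 1.07 in the other arrays. The cause of these differences was not tested.

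None of the 15 keratin probe sets passed the threshold, an adjusted p under 0.05 with limma over all probe sets. Across the whole array 3 probe sets passed, 0.00666%. At an unadjusted p under 0.05 there were 2 keratin probe sets, 1 of Krt23 and 1 of Krt15, against 5.18% of all probe sets. The same 2 were the ones whose genotypes did not overlap, against 10.5% of all probe sets. With so few members these counts lie near the background. At the brightest probe set of each gene, 4 of the 6 simple keratins were higher in heterozygous oviducts, with a median difference of 0.013 on the log2 scale. With the deposited scaling 3 of the 6 were higher and the median was -0.015, so it lies on either side of 0. Of the 4 stratified keratins 2 were higher, with a median of 0.018. Over all 18193 genes 45.0% were higher and the median was -0.027.

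**Figure D1:**
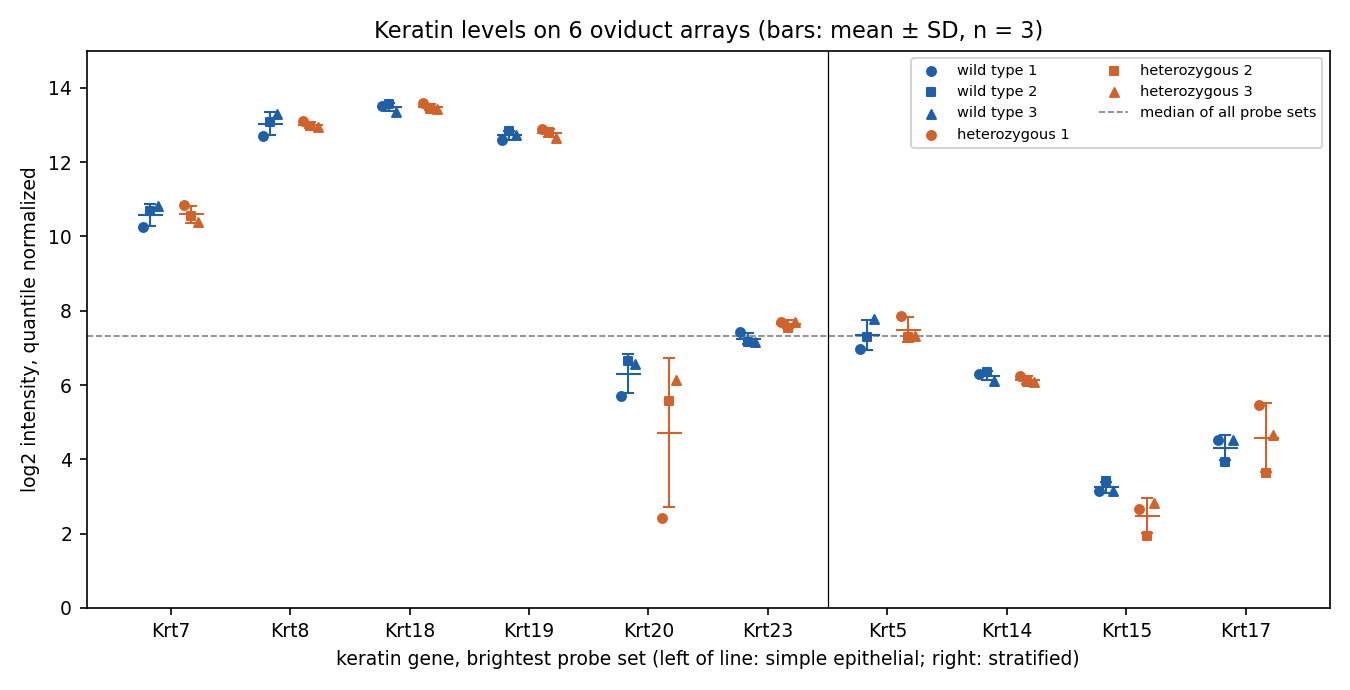
Level of each keratin gene at its brightest probe set (y axis, quantile normalized log2 intensity) in 3 wild-type (blue) and 3 heterozygous (orange) arrays, with the group mean and SD and, dashed, the median of all probe sets at 7.31. Krt7, Krt8, Krt18 and Krt19 lay far above that median in all 6 arrays and overlapped between the genotypes; levels of different probe sets are not on a common scale and are not ranked.

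The founding pair of simple keratins was bright and overlapped between the genotypes. Krt8 read 12.71, 13.09 and 13.31 in wild-type arrays 1 to 3 and 13.11, 12.97 and 12.93 in heterozygous arrays 1 to 3. The wild-type arrays held both the lowest and the highest value, and the heterozygous arrays lay between them. The wild-type mean was 13.04 ± 0.30 (SD, n = 3) and the heterozygous mean 13.00 ± 0.09 (SD, n = 3). The difference of -0.033 had a standard error of 0.20 and a 95% interval from -0.52 to 0.45 (limma adjusted p = 0.988). The other 2 Krt8 probe sets, both of a type that can cross-hybridise, gave -0.086 and -0.021. At both of these, too, wild-type replicate 1 was the lowest of the wild-type arrays.

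Krt18, the type I partner of Krt8, had the narrowest range of the 15 probe sets. It read 13.50, 13.57 and 13.36 in wild-type arrays 1 to 3 and 13.58, 13.43 and 13.44 in heterozygous arrays 1 to 3. All 6 values fell within 0.23 of each other, and the genotypes overlapped. The group means were 13.48 ± 0.11 (SD, n = 3) and 13.48 ± 0.09 (SD, n = 3), and the 95% interval of the difference ran from -0.34 to 0.35 (limma adjusted p = 0.996). The interval leaves room for a modest change in either direction, so the data do not show that the levels are equal.

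Krt7 and Krt19, the other keratins of simple epithelia with bright probe sets, also overlapped. Krt7, a type II keratin of glands and ducts, read 10.24, 10.70 and 10.81 in wild-type arrays 1 to 3 and 10.84, 10.56 and 10.40 in heterozygous arrays 1 to 3. The lowest Krt7 value was again that of wild-type replicate 1. Its difference was 0.017 with a standard error of 0.22 and a 95% interval from -0.52 to 0.56 (limma adjusted p = 0.994). Krt19, a type I keratin with a very short tail, read 12.60, 12.84 and 12.73 in wild-type arrays 1 to 3 and 12.88, 12.82 and 12.65 in heterozygous arrays 1 to 3. Its difference was 0.064 with a standard error of 0.15 and a 95% interval from -0.30 to 0.43 (limma adjusted p = 0.969).

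Krt23, a type I keratin, was the simple keratin whose genotypes did not overlap. The deposited values were 169.8, 143.5 and 140.1 in wild-type arrays 1 to 3 and 200.5, 189.0 and 217.9 in heterozygous arrays 1 to 3. On the normalized log2 scale these were 7.42, 7.17 and 7.15 against 7.70, 7.53 and 7.71, so each heterozygous array was above every wild-type array. The means of 7.25 ± 0.15 (SD, n = 3) and 7.64 ± 0.10 (SD, n = 3) lie on either side of the median of all probe sets. The fold was 1.32 in favour of the heterozygous oviducts, a log2 difference of 0.40 with a standard error of 0.15 and a 95% interval from 0.027 to 0.77. It did not pass over all probe sets with limma (unadjusted p = 0.0396, adjusted p = 0.933). The exact two-sided permutation p was 0.1, the smallest that 3 arrays against 3 allow. Over the 14 alternatives that could be computed for it the Krt23 difference stayed between 0.34 and 0.48, with limma adjusted p from 0.316 to 1.00. Some of these, such as the variance model, cannot change a difference, and the dim filter kept Krt23 through its heterozygous mean alone. The difference was 0.20 within the 3 arrays of lower Actb ratio, which hold 1 wild-type array, and 0.54 within the 3 of higher ratio, which hold 1 heterozygous array; neither was tested.

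Krt20, a type I keratin of intestinal and urothelial surface cells, was dim, and 1 array set its difference. It read 5.70, 6.65 and 6.57 in wild-type arrays 1 to 3 and 2.42, 5.57 and 6.14 in heterozygous arrays 1 to 3. Heterozygous replicate 1, with a deposited intensity of 5.44, stood far below the other 5 arrays, which lay between 48.1 and 100.6. The log2 difference was -1.59 with a standard error of 1.002 (limma adjusted p = 0.933), and -0.45 without heterozygous replicate 1. No detection calls were used, so whether such dim probe sets lay above background is unknown.

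**Figure D2:**
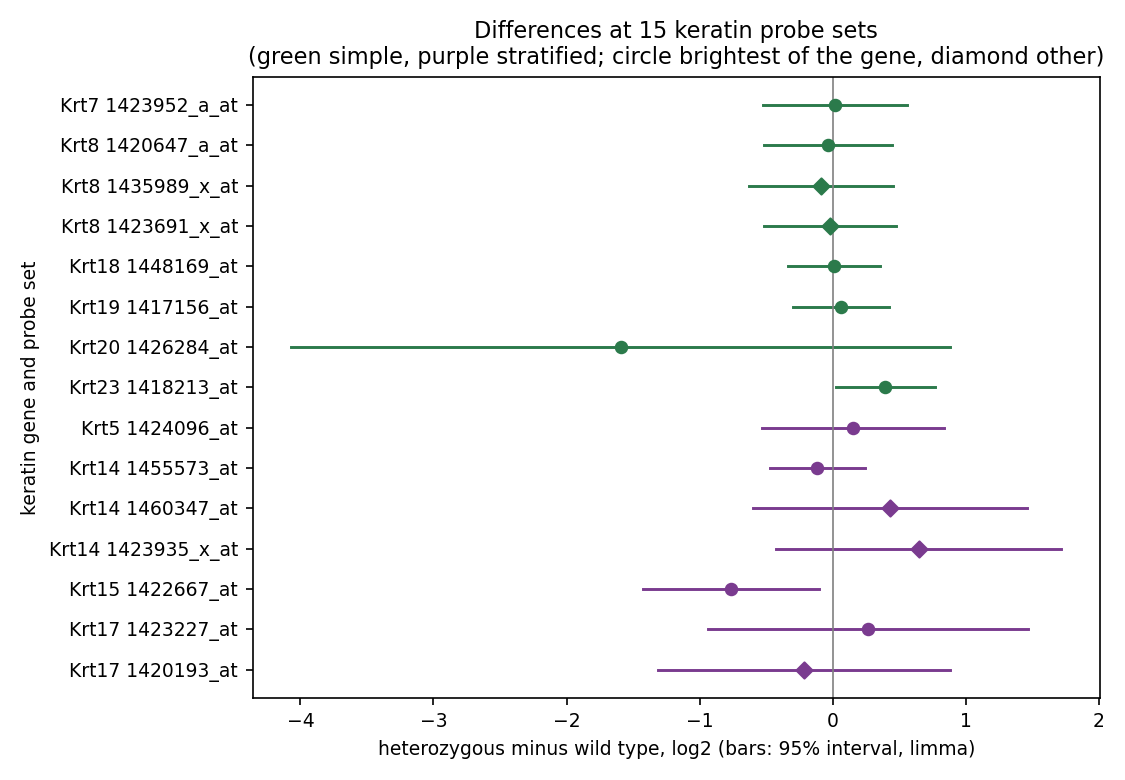
Heterozygous minus wild-type difference (x axis, log2) at each of the 15 keratin probe sets, with the 95% interval of the limma fit; green marks simple and purple stratified keratins, circles the brightest probe set of a gene and diamonds its others. The intervals of Krt23 (0.027 to 0.77) and Krt15 (-1.42 to -0.10) lie on 1 side of 0 before adjustment, and neither passed after it.

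Among the stratified keratins Krt5, the type II keratin of basal cells, lay near the array-wide median. It read 6.97, 7.29 and 7.77 in wild-type arrays 1 to 3 and 7.87, 7.30 and 7.31 in heterozygous arrays 1 to 3. Wild-type replicate 3 and heterozygous replicate 1 were the highest, 1 in each genotype. The difference of 0.15 had a standard error of 0.28 and a 95% interval from -0.53 to 0.83 (limma adjusted p = 0.958). Leaving out wild-type replicate 1 gave -0.036, leaving out heterozygous replicate 1 gave -0.035 and leaving out wild-type replicate 3 gave 0.37, so its direction rested on single arrays. It was 0.45 with the Actb ratio as a covariate.

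The probe sets of Krt14, the type I partner of Krt5, did not run together. The brightest read 6.29, 6.36 and 6.11 in wild-type arrays 1 to 3 and 6.25, 6.08 and 6.09 in heterozygous arrays 1 to 3. In both genotypes it lay under the array-wide median, and its difference was -0.11 (standard error 0.14, limma adjusted p = 0.941). The 2 dimmer Krt14 probe sets, with means between 2.98 and 3.95, gave 0.43 and 0.65, with overlap. A further probe set that the annotation assigns to both Krt14 and Krt17 is outside the rule. Its wild-type mean was 6.95 ± 0.09 (SD, n = 3) and its heterozygous mean 6.87 ± 0.16 (SD, n = 3), a difference of -0.087.

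Krt15 and Krt17 were dim at every probe set. Krt15, a type I keratin of basal and hair follicle stem cells, had deposited intensities of 8.14, 10.9 and 9.46 in wild-type arrays 1 to 3 and 6.36, 3.76 and 7.35 in heterozygous arrays 1 to 3. Each heterozygous array was below every wild-type array. The log2 difference was -0.76 with a standard error of 0.27 and did not pass (limma p = 0.0303, adjusted p = 0.930; exact permutation p = 0.1). It was -0.49 without heterozygous replicate 2 and -0.23 with log2 of the intensity plus 16, the setting that gives dim values less weight. Krt17, a type I keratin of skin appendages and injured epithelium, gave 0.27 at its brighter and -0.22 at its other probe set, with overlap at both and levels between 3.43 and 5.46.

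The spread within genotypes differed among the bright simple keratins. The pooled within-group SD of Krt8 was 0.22 on the log2 scale, against a median of 0.11 over the 589 probe sets whose mean level was within 0.5 of it. For Krt7 it was 0.27 against 0.18. Krt18 and Krt19 were close to the probe sets at their level, at 0.098 against 0.081 and 0.12 against 0.12. Krt23 varied less than its neighbours in level, at 0.13 against 0.28, and Krt20 more, at 1.47 against 0.54. The dim Krt15, a stratified keratin, also varied less, at 0.35 against 0.91.

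The partners that pair in filaments were compared across the 6 arrays at their brightest probe sets. Over the 4 pairs tested, Krt8 and Krt18 gave r = -0.25 (exact permutation p = 0.654, adjusted 0.853) and rho = -0.086 (exact permutation p = 0.919, adjusted 0.919). Without wild-type replicates 1 and 3, the arrays farthest from the median of Krt8, r over the remaining 4 was 0.98, so the value of this relation rests on those 2 arrays. Krt8 and Krt19 gave r = 0.56 (exact permutation p = 0.263, adjusted 0.853) and rho = 0.66 (exact permutation p = 0.175, adjusted 0.700), and r = 0.81 without the same arrays. Krt7 and Krt18 gave r = 0.093 (exact permutation p = 0.853, adjusted 0.853) and rho = 0.20 (exact permutation p = 0.714, adjusted 0.919), and r = 0.21 without wild-type replicate 1 and heterozygous replicate 3. Krt5 and Krt14 gave r = -0.21 (exact permutation p = 0.628, adjusted 0.853) and rho = -0.37 (exact permutation p = 0.497, adjusted 0.919), and r = -0.45 without wild-type replicate 3 and heterozygous replicate 1. None of the 4 pairs passed.

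Krt8 was higher in arrays with a higher Actb ratio, a relation that did not pass adjustment. Across the 6 arrays Krt8 and log2 of the ratio gave r = 0.85 (exact permutation p = 0.0319, adjusted 0.319 over the 10 keratins) and rho = 0.77 (exact permutation p = 0.103, adjusted 0.593). Without wild-type replicate 3 and heterozygous replicate 2, r was 0.85 over 4 arrays. For Krt7 r was 0.69 (exact permutation p = 0.111, adjusted 0.410) and rho 0.71 (exact permutation p = 0.136, adjusted 0.593), and r was 0.95 without those 2 arrays. For Krt5 r was 0.68 (exact permutation p = 0.126, adjusted 0.410) and rho 0.49 (exact permutation p = 0.356, adjusted 0.593), and r was 0.71 without them. For the other 7 keratins r lay between -0.62 (Krt23, exact permutation p = 0.164, adjusted 0.410) and 0.40 (Krt15, exact permutation p = 0.361, adjusted 0.722). Without the same 2 arrays Krt18 went from -0.39 to 0.92 and Krt19 from 0.15 to 0.98, so over the remaining 4 arrays these keratins did not differ in sign from Krt8. With the ratio as a covariate the Krt8 difference was 0.15 and the Krt7 difference 0.20, neither past the threshold (limma adjusted p = 0.993 and 0.991). Within the arrays of lower and of higher ratio, each with 1 array of a genotype, the Krt8 difference was 0.24 and -0.092.

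**Figure D3:**
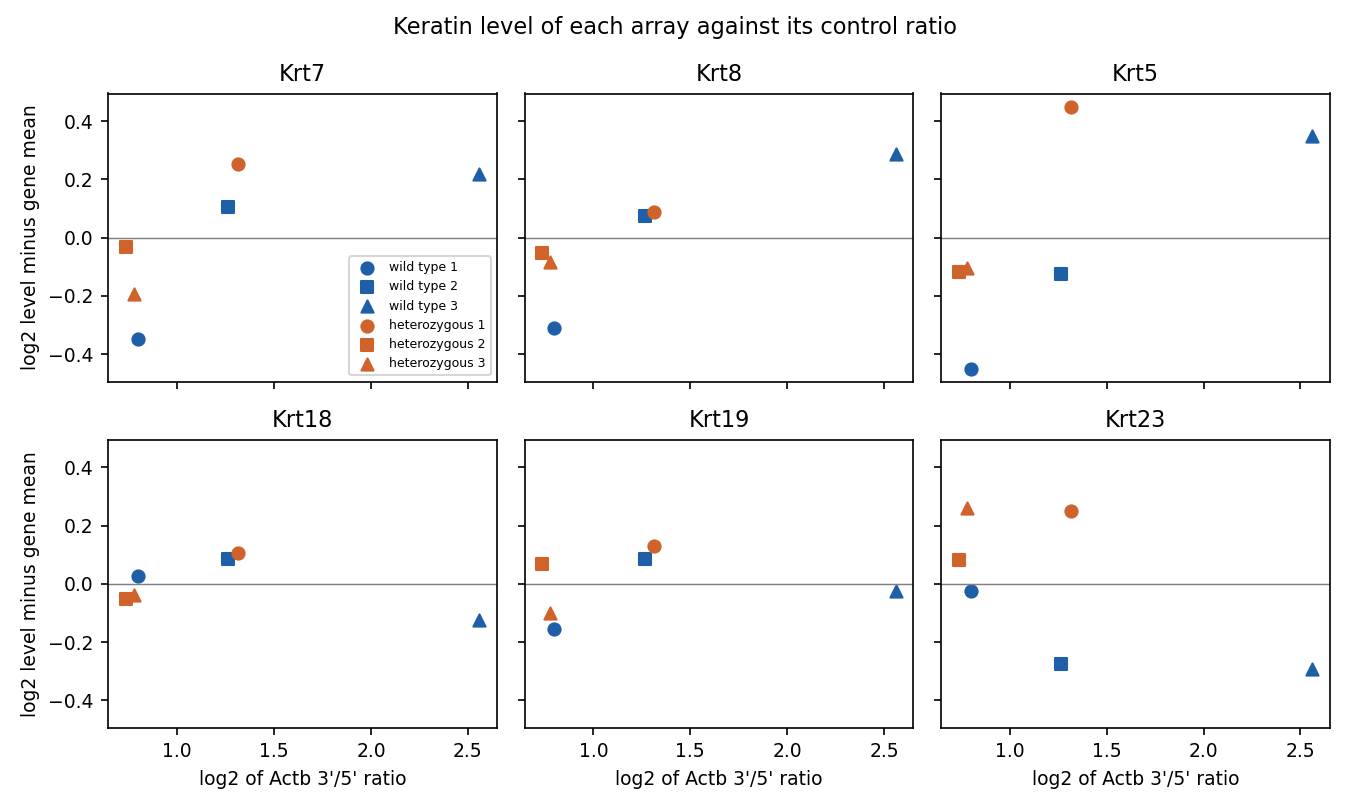
Level of 6 keratins in each array as the deviation from the mean of the gene (y axis, log2) against log2 of the Actb 3' to 5' control ratio of that array (x axis); blue is wild type, orange heterozygous, and the marker shape gives the replicate. Krt7, Krt8 and Krt5 were lowest in wild-type replicate 1 and positive in wild-type replicate 3 and heterozygous replicate 1; Krt23 was above its mean in all 3 heterozygous arrays and below it in all 3 wild-type arrays.

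Marker genes of the cell types in the tissue were read beside the keratins. Of 14 epithelial genes 6 were higher and 8 lower in heterozygous oviducts, with a median of -0.021 and 0 past the threshold. At an unadjusted limma p under 0.05 there were 2 of the 14, and 3 did not overlap, against 5.25% and 11.8% of all genes. Epcam, an epithelial adhesion protein, gave 0.042 and Cdh1, E-cadherin, 0.038. All 10 smooth muscle genes and all 8 stromal genes were higher, by medians of 0.56 and 0.22, and 5 of 6 adipocyte genes, by a median of 1.37. None of these passed singly. At an unadjusted limma p under 0.05 there were 4 of the smooth muscle, 1 of the stromal and 3 of the adipocyte genes, and 7, 1 and 3 did not overlap. Per-array scores, the mean deviation of a list's genes from their own means, ran from -0.43 to -0.074 in wild-type and from -0.10 to 0.58 in heterozygous arrays for smooth muscle, and from -0.16 to 0.12 and from -0.096 to 0.13 for epithelium. For the adipocyte list they ran from -1.004 to -0.12 and from 0.27 to 0.95. Of 10 mesothelial genes, Wt1 among them, 6 were higher, with a median of 0.12. Upk3b gave 0.20 and Msln -0.041. Of the remaining marker lists, 4 of 5 secretory, 1 of 8 ciliated, 7 of 8 endothelial, 4 of 6 leukocyte, 4 of 5 uterine gland and 1 of 4 granulosa genes were higher, and 0 passed. Uterine gland scores ran from -0.73 to -0.23 in wild-type and from 0.50 to 0.56 in heterozygous arrays. They rest mostly on Cxcl15, at 2.50, and the dim Prss28, at 1.63. Prss29 gave 0.65, Lif 0.55 and Foxa2 -0.063, with overlap at each. These 5 genes are named after their values were seen. Endothelial scores ran from -0.23 to -0.10 and from 0.064 to 0.23, and stromal scores from -0.20 to -0.051 and from 0.0054 to 0.31. Scores of the secretory, ciliated, leukocyte, granulosa and mesothelial lists overlapped between the genotypes. The part of cell makeup in the keratin values was not tested.

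Markers of a stratified epithelium were mostly dim, as were its keratins apart from Krt5, which lay near the array-wide median. Of 12 measured genes 3 lay above the array-wide median, Pkp1, Perp and Krt10. Of the cornified envelope genes Ivl and Sprr1b had means of 3.90 and 2.74, and Lor, loricrin, of 7.30, close to the array-wide median. Trp63, the transcription factor of basal cells, read 7.24, 7.10 and 7.01 in wild-type arrays 1 to 3 and 7.14, 6.72 and 6.53 in heterozygous arrays 1 to 3, a difference of -0.32 with overlap (limma adjusted p = 0.933). Of 18 measured further keratins 7 were higher and 11 lower, with a median of -0.031 and 0 past the threshold (1 at an unadjusted limma p under 0.05); with the deposited scaling 10 were higher and the median was 0.015. Krt80, Krt10 and Krt12 lay above the array-wide median and gave differences of 0.17, -0.24 and -0.35.

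Keratin filaments are anchored at cell junctions by a set of linker proteins. The list of 19 genes held desmosomal, hemidesmosomal and linker proteins, the keratin-binding Fam83h and Tchp, and Krtcap2 and Krtcap3, which are keratinocyte-associated by name and no known anchors. Of the 19 genes 17 were lower in heterozygous oviducts, with a median of -0.13, against 55.0% of all genes and a median of -0.027. None passed the threshold, and 3 did not overlap, against 11.8% of all genes. At an unadjusted limma p under 0.05 there was 1 gene, against 5.25% of all genes. That gene was Pkp1, a plakophilin that ties keratins to desmosomes, which read 9.40, 10.00 and 10.10 in wild-type arrays 1 to 3 and 8.17, 8.25 and 8.04 in heterozygous arrays 1 to 3. Its genotypes lay far apart, by -1.68 with a standard error of 0.23 (limma adjusted p = 0.323). Dsp, desmoplakin, the direct link between desmosome and keratin, gave -0.020, and the cytolinkers Dst and Plec gave -0.060 and -0.23. Of the 19 the genes Itgb4 and Krtcap2 were higher, by 0.030 and 0.011. The count of lower genes was followed over other settings only after the data were seen. It was 18 with the deposited scaling, against 53.7% of all genes, and 15 with the Actb ratio as a covariate, against 49.4%. When single arrays were left out it was 15 to 19, against 51.3% to 58.0% of all genes.

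**Figure D4:**
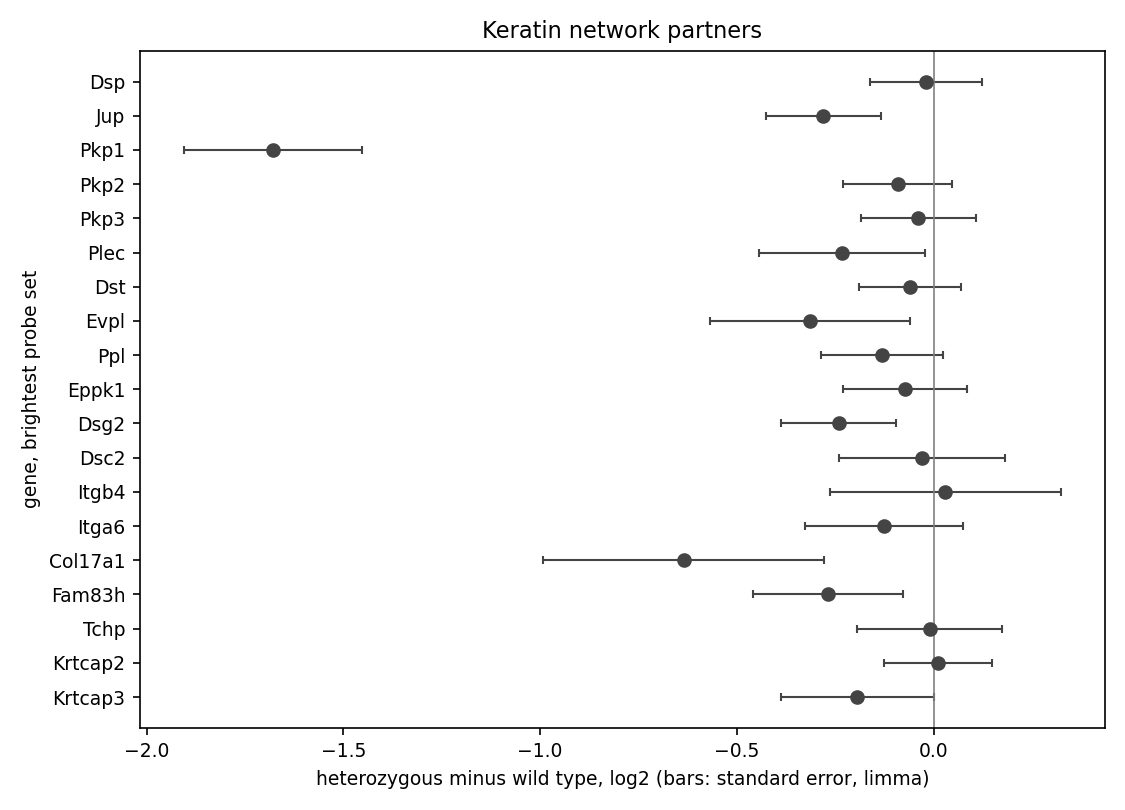
Heterozygous minus wild-type difference (x axis, log2) of 19 keratin network partners at their brightest probe sets, with limma standard errors. Most points lie between -0.31 and 0.030; Pkp1 stands apart at -1.68 and the dim Col17a1 at -0.64.

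Of 15 measured transcription factors with known roles in keratin or epithelial gene expression 7 were higher and 8 lower, with a median of -0.18 and 0 past the threshold. Ehf, Klf5 and Elf3, whose probe sets gave high signals, differed by 0.0040, 0.045 and -0.22. The 2 with an unadjusted limma p under 0.05 were Tfap2c, an AP-2 factor, at -1.41 (adjusted p = 0.439) and Ovol2, an epithelial repressor, at -0.60 (adjusted p = 0.770), both named after their values were seen. Their genotypes did not overlap. Over all genes 5.25% had such a p and 11.8% did not overlap. Among 8 other intermediate filament genes 3 were higher and 5 lower, with a median of -0.20 and 0 past the threshold. Synm, synemin, at -0.78 and Lmnb1, lamin B1, at -0.50 had an unadjusted limma p under 0.05 (adjusted p = 0.855 and 0.933) and no overlap. Gfap also did not overlap, but was higher, by 0.35 (limma adjusted p = 0.933). Synm, Lmnb1 and Gfap are named after their values were seen. Vim, the vimentin of mesenchymal cells, gave -0.10 and Des, the desmin of muscle, 0.72, with overlap at both and neither past the threshold (limma adjusted p = 0.949 and 0.933).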

How the data were processed

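The deposited values are linear intensities, 1 for each of 45101 probe sets of a 1-colour 3' array; the labels' protocols give biotin-labelled cRNA from 1 µg of RNA. The sources used here name no summarising program. The mean after trimming 2% of probe sets at each end was 500.002 in every array, so the deposited intensities had been scaled. Without 64 control probe sets, 45037 remained: 34945 with 1 symbol in the platform annotation, 932 with several, 9160 unnamed. Intensities under 1 were set to 1, log2 transformed and quantile normalized, since array medians (151.6 to 167.8) differed by 0.15 on the log2 scale. Heterozygous minus wild type was fitted with limma 3.58.1 in R 4.3.3 (lmFit, eBayes; two-sided; Benjamini-Hochberg over all probe sets; threshold 0.05); errors of differences are moderated standard errors. Lists used each gene's brightest probe set. Exact permutation tests had 20 assignments.

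The members and lists were chosen with earlier results of these data known. All keratin probe sets are given; of other list genes, those chosen for their role, the 3 of highest signal or those past the threshold are named, with exceptions marked. Alternatives covered scaling, a dim filter, variance model, array weights, replicate block, single arrays, log2 of the intensity plus 16, the Actb ratio, cross-hybridising probe sets and averaging over the probe sets of a gene. On simulated data of 45037 probe sets, 6% of 100 shifted by 1 on the log2 scale and 68% of 100 shifted by 2 were recovered, with 3 false calls.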

Additional observations from a re-analysis of the deposited data

How the results depend on the processing

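No keratin probe set passed under any of the 14 alternatives: of 200 differences recomputed, 0 were past the threshold and 176 kept their direction. The dim filter, the variance model, the replicate block and leaving out cross-hybridising probe sets do not change a difference, only its error or adjustment. Their values could not reverse, so the count of kept directions overstates stability. With the alternative variance model 0 keratin probe sets had an unadjusted limma p under 0.05, against 2. Without single arrays that number was 0 to 1. The medians of the simple and stratified keratins moved by less than the SD between replicates of each list's mean score, 0.21 and 0.30. That is a loose yardstick. Krt20 in heterozygous replicate 1, at -3.09 from its gene mean, widens the spread of the simple score but hardly that of a median. Without single arrays the medians ranged from -0.075 to 0.082 and from -0.17 to 0.090, so both took either sign. The filter on dim probe sets kept those with the mean of either genotype above the median of all probe sets. It left 8 of the 15 keratin probe sets and Krt5 alone among stratified genes. Krt23 passed it through its heterozygous mean of 7.64 alone, its wild-type mean being 7.25. The number of all probe sets called was 14 with array weights, 1 with log2 of the intensity plus 16, 0 with the Actb ratio as a covariate, 0 with the replicate number as a block and 0 to 1 without single arrays, against 3; the cause was not tested.

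Direction was not stable where differences were near 0. Krt18 turned to -0.048 with the deposited scaling, -0.061 with array weights and -0.027 with the Actb covariate. With array weights Krt7 was -0.069 and Krt19 -0.0050. With the Actb covariate the Krt8 probe sets gave 0.15, 0.088 and 0.13 and the second Krt17 probe set 0.081. Without single arrays Krt7 ranged from -0.15 to 0.13, the Krt8 probe sets from -0.20 to 0.099, -0.24 to 0.056 and -0.18 to 0.071, Krt18 from -0.052 to 0.055, Krt5 from -0.036 to 0.37, and Krt17 from -0.17 to 0.74 and -0.53 to 0.21; the cause was not tested.

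Genotypes share replicate numbers in the titles, but same-numbered arrays did not deviate together (correlations -0.16, -0.023 and -0.092). A lack of such correlation cannot exclude a pairing, so whether the numbers pair the samples remains unknown. With the replicate block 0 keratin probe sets passed.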
